A study of Arabidopsis thaliana with 6 samples.

Results

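The genes *psaI*, *ycf4*, *cemA* and *petA* follow each other on the plus strand of the *Arabidopsis* chloroplast genome, downstream of *accD*, and their mRNAs were followed here from the input into the precipitate of the RNA binding protein CP31A. They were chosen by name and position, and they are 4 of the 73 RNAs in the table, which holds 77 gene entries before copies of the inverted repeat are merged. The samples were wild-type (WT) Columbia-0 seedlings, 14 days old, grown at 21 °C in long days, and no other genotype or treatment was used. Digestion-optimized RNA co-immunoprecipitation with sequencing (DO-RIP-Seq) fixes proteins on RNA with formaldehyde, trims the RNA with a nuclease and sequences the fragments that an antibody brings down. There were 3 input libraries without antibody selection, taken from the mix of extract and beads, and 3 pellet libraries with anti-CP31A, numbered 1 to 3 as biological replicates. Whole seedlings were used, so the values are means over all their tissues. Precipitates with non-specific immunoglobulins were not analysed here.

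CP31A is a nuclear-encoded chloroplast ribonucleoprotein, imported into the organelle, that binds many chloroplast mRNAs and supports their stability and editing. Genes of the cluster are transcribed together in many land plants, and the long precursor is then cut into shorter mRNAs. The proteins have different tasks. PsaI is a small membrane subunit of photosystem I, Ycf4 helps to assemble photosystem I, CemA is a protein of the inner chloroplast envelope, and PetA is cytochrome *f*, the *c*-type cytochrome of the cytochrome *b6f* complex that passes electrons on towards photosystem I.

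All positions are on the RefSeq chloroplast sequence (Pltd, 154478 bp) of TAIR10.1, plus strand, and each gene is annotated there as a single exon that is coding throughout. *psaI* spans 59247 to 59360, *ycf4* 59772 to 60326, *cemA* 60741 to 61430 and *petA* 61657 to 62619. Reads were counted by the authors over each gene with 100 nt on each side. The counting windows were 314 nt for *psaI*, 755 nt for *ycf4*, 890 nt for *cemA* and 1163 nt for *petA*, so that 63.7% of the *psaI* window was flanking sequence. The windows did not overlap. They lay 211 nt apart between *psaI* and *ycf4*, 214 nt between *ycf4* and *cemA* and 26 nt between *cemA* and *petA*. Upstream, *accD* ended 705 nt before *psaI*. Downstream, the next protein-coding gene was *psbJ*, on the other strand and 918 nt away.

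The sequences below are from RefSeq, TAIR10.1, and are shown because 3 of the windows were rich in runs of T, while that of *petA* was not. They are the whole *psaI* coding sequence, the first 114 bases of the other coding sequences, and the 26 bases that separate the windows of *cemA* and *petA*. Capitals mark runs of 4 or more T (U in the RNA).
*psaI* (Pltd:59247-59360): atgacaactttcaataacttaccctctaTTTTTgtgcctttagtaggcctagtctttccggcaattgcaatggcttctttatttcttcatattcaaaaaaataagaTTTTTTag
*ycf4* (Pltd:59772-59885): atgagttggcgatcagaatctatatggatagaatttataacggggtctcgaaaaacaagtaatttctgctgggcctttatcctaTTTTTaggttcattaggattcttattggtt
*cemA* (Pltd:60741-60854): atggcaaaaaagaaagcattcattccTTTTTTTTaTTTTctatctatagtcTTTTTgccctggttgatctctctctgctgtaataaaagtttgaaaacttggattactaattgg
*petA* (Pltd:61657-61770): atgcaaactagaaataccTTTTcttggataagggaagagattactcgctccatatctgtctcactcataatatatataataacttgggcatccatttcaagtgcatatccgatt
between *cemA* and *petA* (Pltd:61531-61556): tgtatatttcaacaaaaaaaatttga

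Runs of T in capitals numbered 2 in the *psaI* coding sequence, 3 in the stretch of *cemA* and 1 each in those of *ycf4* and *petA*. The number of runs printed thus does not show the contrast between the windows of *ycf4* and *petA*, and the flanks are not printed. Over the whole counting window on the coding strand, with overlapping matches counted, TTTT occurred 4.78 times per 100 nt for *psaI*, 3.26 for *cemA*, 3.18 for *ycf4* and 1.72 for *petA*. The median of the 73 windows was 1.87, and 100% of them held the motif at least once. The windows of *psaI*, *cemA* and *ycf4* ranked 4, 14 and 15 of 73 in this density, and that of *petA* ranked 42. GC content was 28.0% for *psaI*, 30.4% for *cemA*, 33.9% for *ycf4* and 36.8% for *petA*, with a median of 33.9% over the windows. These are descriptions of the sequence, and a link to CP31A was not tested.

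Over the 73 RNAs, input libraries held 24224 to 73526 reads and pellet libraries 251570 to 392286, as computed from TPM and window length. TPM are reads divided by window length and scaled to a common total in each library, so windows of unlike length can be set side by side. They do not correct for the share of flank in a window. It was 63.7% for *psaI*, 26.5% for *ycf4*, 22.5% for *cemA* and 17.2% for *petA*. The nuclease was added before the input was taken. Levels given here, in inputs as in pellets, are thus those of remaining fragments and need not follow the amounts of whole mRNAs. Input 1 had the fewest reads and stood apart from the other inputs: its log2 TPM correlated at 0.92 and 0.93 with those of inputs 2 and 3 across RNAs, against 0.99 between these. *psbA* and *rbcL* ranked 1 and 2 by TPM in every library. Summed over the 4 mRNAs, inputs 1 to 3 gave 197, 570 and 636 reads, whereas pellets 1 to 3 gave 3271, 4873 and 5831.

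The first question was whether the mRNAs of the cluster were enriched with CP31A. *psaI*, *cemA* and *ycf4* were enriched in the pellets, and *petA* missed the threshold. *psaI* reached 2.48-fold, *cemA* 2.27-fold and *ycf4* 1.84-fold, while *petA* was at 1.02-fold. Enrichment is log2 of pellet TPM over input TPM, averaged over the 3 replicate pairs. TPM share a common total in each library, so enrichment is relative to the other RNAs. The mean of *psbA* alone was 476348 TPM in the inputs and 351343 TPM in the pellets. With TPM rescaled without the 3 most abundant RNAs, none of the 4 mRNAs passed. The two-sided test came from limma, which was run on all 73 RNAs with replicate number as a blocking term, and p-values were adjusted after Benjamini and Hochberg. Of the 4 mRNAs, 3 were enriched at an adjusted p under 0.05, against 49.3% of all RNAs. Called targets, with a log2 enrichment of at least 1 as well, were *psaI* and *cemA*, 2 of 4 against 34.2% of all RNAs. The median of the 4 was 1.03, beside 0.71 for the 73 RNAs.

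The *psaI* mRNA stood at 1831, 4271 and 4258 TPM in inputs 1 to 3 and rose to 7324, 8241 and 8444 TPM in pellets 1 to 3. Every pellet lay above every input, and input 1 was the lowest library by more than 2-fold. The log2 enrichment was 1.31 ± 0.60 (SD, n = 3 pairs), with a limma standard error of 0.27 and an adjusted p = 0.00488, and the pairs gave 2.00, 0.95 and 0.99. These values rest on 12, 77 and 83 input reads, and in the first pair counting alone gives a standard error of 0.42. *psaI* ranked 14 of 73, between *petN* (1.40 ± 0.65) and *ndhJ* (1.27 ± 0.32; SD, n = 3 pairs), from which it differed by less than the spread between pairs.

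For *cemA*, inputs 1 to 3 gave 1723, 4207 and 3548 TPM, and pellets 1 to 3 gave 6216, 6916 and 7003 TPM. The groups did not overlap, and input 1 was again the lowest. Single pairs gave log2 enrichments of 1.85, 0.72 and 0.98, with a mean of 1.18 ± 0.59 (SD, n = 3; limma adjusted p = 0.00726). Its input reads numbered 32, 215 and 196. *cemA* ranked 19 of 73, beside *psbN* (1.22) and *matK* (1.14).

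*ycf4* was the mRNA with the lowest input level of the 4, at 1396, 2376 and 2518 TPM for inputs 1 to 3. Pellets 1 to 3 gave 3428, 3934 and 3867 TPM. It too was higher in every pellet than in any input. Its log2 enrichment averaged 0.88 ± 0.36 (SD, n = 3; limma adjusted p = 0.0126) over pairs of 1.30, 0.73 and 0.62. Input reads numbered 22, 103 and 118. It ranked 30 of 73, between *rpoC1* (0.91) and *petL* (0.85).

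*petA* differed from the others in its input. Inputs 1 to 3 stood at 5398, 2621 and 3310 TPM, and pellets 1 to 3 at 3527, 3618 and 3858 TPM. Input 1 was here the highest of all libraries and input 2 the lowest, so the groups overlapped. The log2 enrichment was 0.02 ± 0.57 (SD, n = 3 pairs; adjusted p = 0.967 from limma) with a 95% confidence interval of -0.59 to 0.64, and the pairs gave -0.61, 0.47 and 0.22. It had 131, 175 and 239 input reads, the most of the 4 in inputs 1 and 3. *petA* ranked 58 of 73, between *rps14* (0.11) and *psbI* (0.02).

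**Figure D1:**
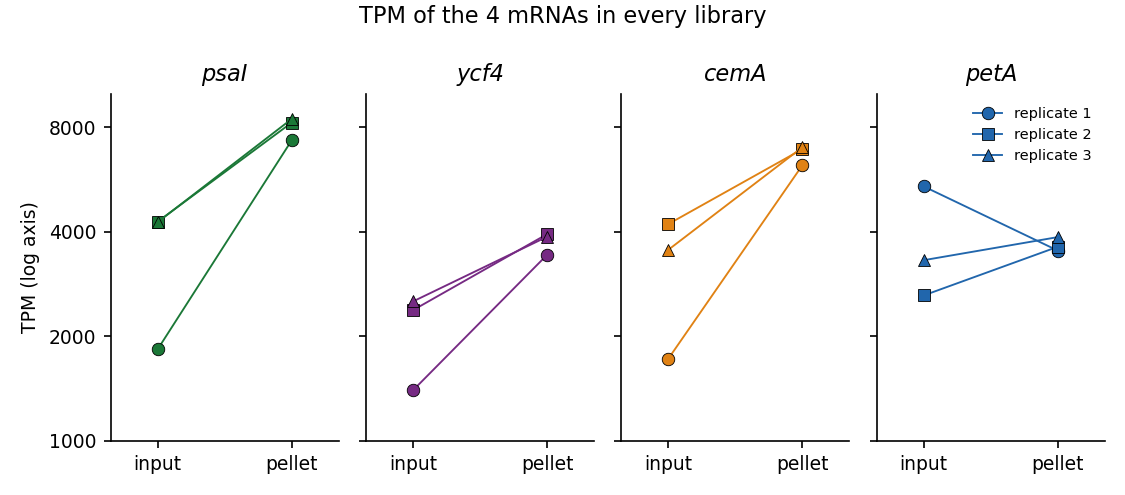
TPM (log axis) of each mRNA in the input and pellet libraries, with a line joining the libraries of a replicate. The pellets of *psaI*, *ycf4* and *cemA* all lie above their inputs, and for *petA* replicate 1 falls from 5398 to 3527 while replicates 2 and 3 rise.

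Every pellet exceeded every input for 3 of the 4 mRNAs, against 63.0% of the 73 RNAs. Without replicate 1 all 4 mRNAs passed, as did 58 of all 73 RNAs, and none of the 4 was a target. The values were 0.97 for *psaI*, 0.85 for *cemA*, 0.67 for *ycf4* and 0.34 for *petA* (adjusted p = 0.0178 from limma for *petA*). With a replicate left out, limma gave every RNA the same standard error. It was 0.14 without replicate 1, against 0.41 and 0.45 without replicates 2 and 3. Calls in these fits, that of *petA* included, thus do not measure the spread of the single RNA. Without replicate 2 or 3, *psaI* and *cemA* passed and *ycf4* did not (adjusted p = 0.0566 and 0.0756 from limma), among 26 and 21 RNAs. When every library was centred on its median, which lowered the median enrichment of all RNAs from 0.71 to -0.12, none of the 4 passed and *petA* was at -0.81 (adjusted p = 0.0733 from limma).

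**Figure D2:**
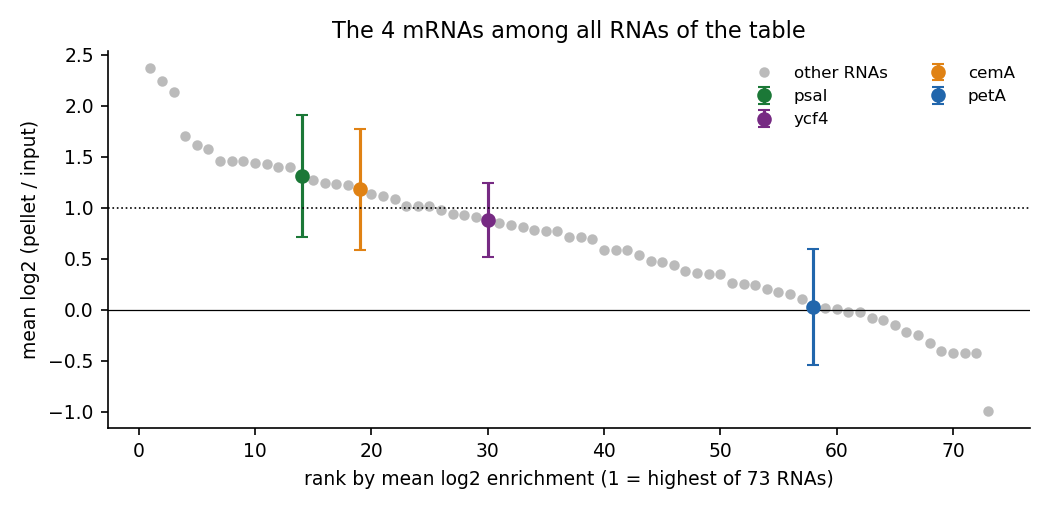
Mean log2 enrichment of the 73 RNAs in rank order, with the SD over 3 pairs for the 4 mRNAs of the cluster and a dotted line at 1. *psaI*, *cemA*, *ycf4* and *petA* stand at ranks 14, 19, 30 and 58.

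The second question was how enrichment ran along the cluster in gene order. From *accD* to *petA* the mean log2 enrichment was 0.70, 1.31, 0.88, 1.18 and 0.02. *accD*, which encodes a subunit of the acetyl-CoA carboxylase, was enriched at 0.70 ± 0.25 (SD, n = 3 pairs; adjusted p = 0.0292 from limma). *psbJ* on the other side, a small subunit gene of photosystem II, reached 0.18 ± 0.45 (SD, n = 3; limma adjusted p = 0.589). The profile was steepest in replicate 1, where the 4 mRNAs spanned 2.61 on the log2 scale, against 0.48 and 0.77 in replicates 2 and 3. In each of the 3 pairs *psaI* was the highest of the 4 and *petA* the lowest. The lead of *psaI* over *cemA* was not resolved in replicate 3. The values there were 0.988 and 0.981, with standard errors from counting alone of 0.17 and 0.11.

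**Figure D3:**
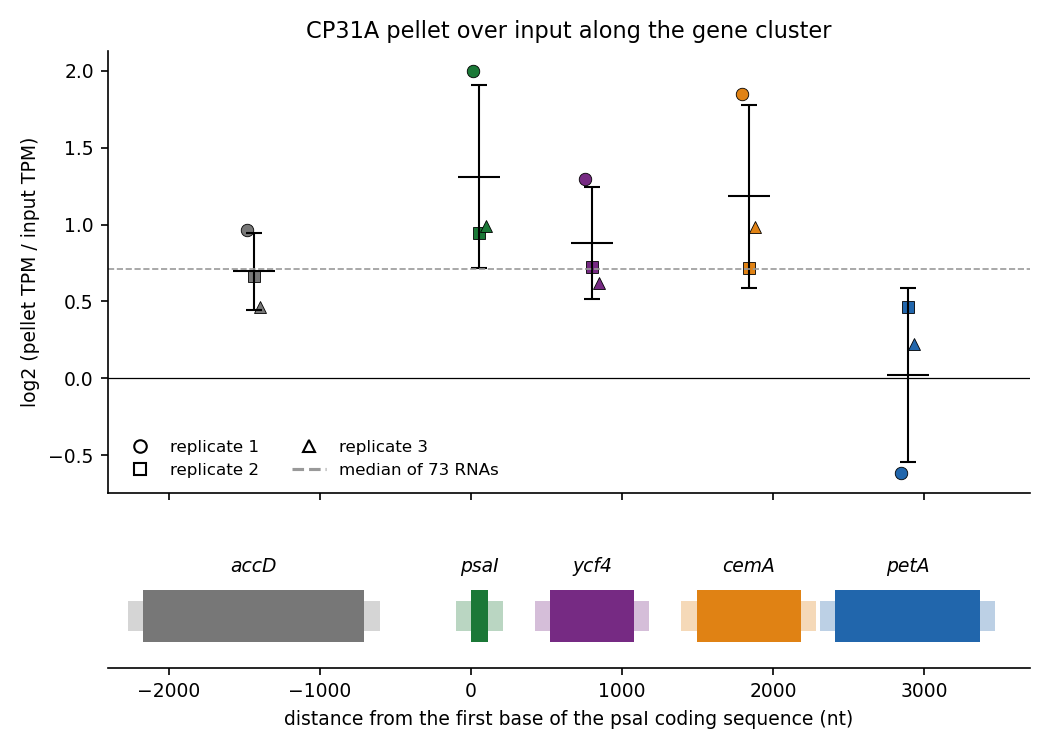
Upper panel: log2 of pellet over input TPM for each replicate pair (symbols), with the mean and SD over 3 pairs (bars) and the median of 73 RNAs (dashed). Lower panel: coding sequences (dark) and counting windows (light) to scale. The means run from 0.70 at *accD* through 1.31, 0.88 and 1.18 to 0.02 at *petA*.

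Steps between neighbours were tested with limma on differences of log2 TPM within libraries, downstream gene minus upstream gene, for all 71 pairs of consecutive genes on a strand. None of the steps of the cluster passed, while 8.45% of all pairs did. The step from *cemA* to *petA* was -1.16 ± 1.16 (SD, n = 3 pairs), from -2.46, -0.25 and -0.76, with an adjusted p = 0.0983 from limma (unadjusted 0.0360). It was below 0 in 3 of 3 pairs, and its 95% confidence interval was -2.22 to -0.10 before adjustment. The step from *accD* to *psaI* was 0.62 (adjusted p = 0.156 from limma), with 3 of 3 pairs above 0. The step from *psaI* to *ycf4* was -0.43 (interval -1.09 to 0.23) and that from *ycf4* to *cemA* 0.30 (interval -0.37 to 0.97). Without replicate 1 the step from *cemA* to *petA* was -0.51 and passed (adjusted p = 0.0216 from limma), and without replicate 2 it was -1.61 and passed (adjusted p = 0.0352 from limma), among 39 and 11 of the 71 pairs. Without replicate 3 it was -1.36 and missed the threshold (limma adjusted p = 0.145). There too limma gave every pair of genes 1 shared standard error, so these passes do not measure the spread of this step.

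The third question was how the mRNAs of the cluster stood to each other within a library. In the pellets the order was the same in 3 of 3 replicates for *psaI* over *cemA*, and both over *ycf4* and *petA*. *psaI* made up 35.7%, 36.3% and 36.4% of the summed TPM of the 4 in pellets 1, 2 and 3. *cemA* held 30.3%, 30.5% and 30.2%. *ycf4* held 16.7%, 17.3% and 16.7% and *petA* 17.2%, 15.9% and 16.6%, so these last 2 changed places between replicates. The shares of each mRNA thus lay within 1.28 percentage points of each other over the pellets.

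The inputs were less alike. In input 1 the shares of *psaI*, *ycf4*, *cemA* and *petA* were 17.7%, 13.5%, 16.6% and 52.2%. In input 2 they were 31.7%, 17.6%, 31.2% and 19.4%. In input 3 they were 31.2%, 18.5%, 26.0% and 24.3%. Inputs 2 and 3 were thus closer to the pellets than to input 1 for every mRNA of the cluster.

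**Figure D4:**
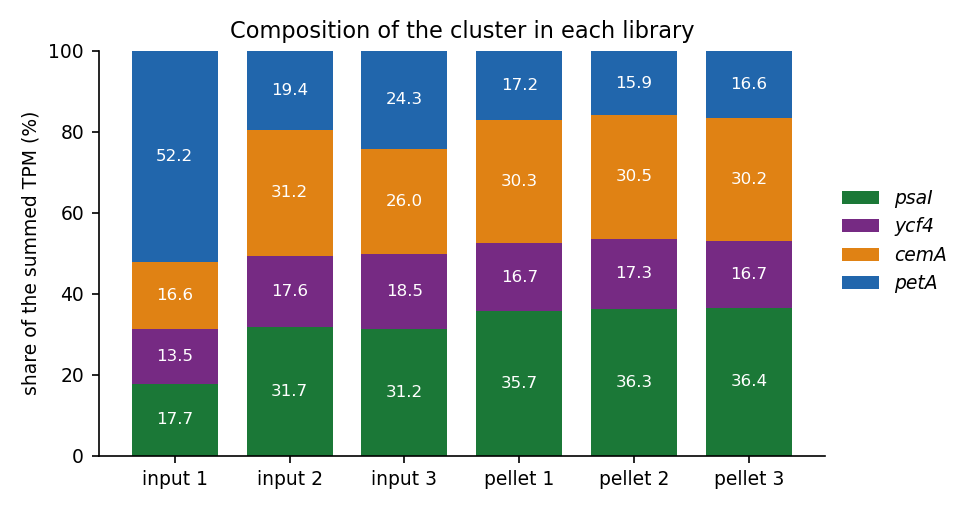
Share of each mRNA in the summed TPM of the 4, in every library. The 3 pellets are nearly identical, with *psaI* at 35.7% to 36.4%, and *petA* takes 52.2% in input 1 against 15.9% to 24.3% elsewhere.

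By reads, *petA* had 131 of the 197 of the cluster in input 1, which is 66.5% (95% Wilson interval 59.6% to 72.7%), against 30.7% (27.1% to 34.6%) in input 2 and 37.6% (33.9% to 41.4%) in input 3. In the pellets the same share of reads was 26.4% to 28.2%. These intervals cover counting error only, not the spread between biological samples. Relative to the mean of inputs 2 and 3, input 1 stood at -1.22 for *psaI*, -1.17 for *cemA*, -0.81 for *ycf4* and 0.87 for *petA* on the log2 scale, where the median size of this difference over the 73 RNAs was 0.66.

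Levels of neighbours in the input were set against each other with limma on the same differences, over 3 inputs. Of all pairs, 66.2% differed. *psaI* was 3.44-fold above *accD* (log2 1.78 ± 0.47, SD, n = 3 inputs; adjusted p = 0.00290 from limma), the only step of the cluster that passed. Flanks made up 63.7% of the *psaI* window and 12.0% of that of *accD*. *ycf4* lay below *psaI* by -0.67 ± 0.24 on the log2 scale (SD, n = 3 inputs; adjusted p = 0.0572 from limma). *cemA* lay above *ycf4* by 0.54 ± 0.26 (SD, n = 3 inputs; adjusted p = 0.0998 from limma). *petA* and *cemA* differed by 0.29 ± 1.21 (SD, n = 3 inputs; adjusted p = 0.593 from limma), with *petA* higher by 1.65 in input 1 and lower, at -0.68 and -0.10, in inputs 2 and 3. Without replicate 1 this difference turned to -0.39 and passed (adjusted p = 0.0387 from limma), and the steps from *psaI* to *ycf4* (-0.80) and from *ycf4* to *cemA* (0.66) passed as well, among 63 of 71 pairs under 1 shared standard error of 0.18. Without replicate 2 or 3 none of these 3 steps passed, and *petA* lay above *cemA* by 0.77 and 0.48 (adjusted p = 0.226 and 0.524 from limma).

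In the pellets the same differences were -1.10 ± 0.03 from *psaI* to *ycf4*, 0.84 ± 0.03 from *ycf4* to *cemA* and -0.87 ± 0.06 from *cemA* to *petA* (log2 of TPM, SD, n = 3 pellets). They are given without a test. Tight pellets were not peculiar to the cluster: the SD of log2 TPM over 3 libraries had a median of 0.09 in the pellets and 0.41 in the inputs over the 73 RNAs. For the 4 mRNAs it was 0.07 to 0.11 in the pellets and 0.47 to 0.70 in the inputs. As a whole, the cluster held 1.05%, 1.37% and 1.38% of the summed TPM of inputs 1 to 3, and 2.10%, 2.33% and 2.38% of that of pellets 1 to 3.

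Partners of the 4 proteins are encoded elsewhere in the chloroplast genome, and their mRNAs are given for comparison. Among 5 mRNAs for photosystem I, *psaI* was enriched and the other 4 did not pass, 1 of 5 against 49.3% of all RNAs. The mRNAs of *psaA* and *psaB*, for the proteins of the reaction centre, were at -0.43 ± 0.26 and 0.38 ± 0.19, that of *psaC*, an iron-sulfur protein, at 0.25 ± 0.42, and that of *psaJ*, a small membrane subunit like PsaI, at 0.47 ± 0.60 (SD, n = 3 pairs). The median of the 5 was 0.38, below the 0.71 of all RNAs, and their input levels ran from 3454 TPM for *psaI* to 14718 TPM for *psaA*. *psaI* thus had the lowest input TPM of these photosystem I mRNAs.

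Among 6 mRNAs for the cytochrome *b6f* complex, *petN*, *petG* and *petL*, which encode small subunits, were enriched at 1.40, 0.98 and 0.85, 3 of 6 and so close to the 49.3% of all RNAs. *petB* (cytochrome *b6*) and *petD* (subunit IV) were at 0.59 each and did not pass (adjusted p = 0.0693 and 0.0566 from limma). *petA* had the lowest value of the 6, and its pellets and inputs overlapped, whereas 5 of the 6 showed no overlap, against 63.0% of all RNAs. *ycf3*, for another photosystem I assembly factor, had an input level close to that of *ycf4* (2024 ± 192 TPM against 2097 ± 611 TPM; SD, n = 3 inputs) and was at 0.48 ± 0.18 (SD, n = 3 pairs), which did not pass, against 0.88 for *ycf4*. *ccsA*, which serves heme attachment to *c*-type cytochromes such as cytochrome *f*, was enriched at 1.24 ± 0.71 (SD, n = 3 pairs; adjusted p = 0.00747 from limma), close to *cemA* and unlike *petA*. Differences between mRNAs of different loci were not tested.

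RNAs with the profile most like each member were found by the Euclidean distance between the log2 enrichments of the 3 pairs. For *psaI* they were *petN* (distance 0.17), *ccsA* (0.22) and *cemA* (0.27). For *cemA* they were *ccsA* (0.21), *psaI* (0.27) and *psbK* (0.40). The profiles of *psaI* and *cemA* were thus among the nearest to each other, and both were high in replicate 1. For *ycf4* they were *petG* (0.18), *petL* (0.25) and *rpoC1* (0.30). For *petA* they were *psbI* (0.29), *rpl14* (0.30) and *psbJ* (0.32), which all were below 0 in replicate 1, at -0.79, -0.84 and -0.34, and above 0 in the others. This measure rests on 3 pairs and follows the offset of input 1.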

How the data were processed

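Reads were trimmed by the authors (Trim Galore 0.6.4), mapped to TAIR10 (STAR 2.5.3), deduplicated by molecular identifier (UMI-tools 0.5.4) and counted with featureCounts. Counting took in the coding strand of protein-coding genes, introns and 100 nt of flank on either side, genes with few reads were left out, and TPM were deposited for 77 entries. The deposited log2 TPM equal log2 of these values, and the deposited mean enrichment and p-values were not used. Positions were taken from RefSeq TAIR10.1, whose chloroplast sequence is the one named in the methods. With a factor fitted for each library (the smallest at which over 90% of entries came out whole), TPM times window length gave whole reads (tolerance 0.0001) for 456 of 462 values, and the exception was *psbC*. Fewer reads mean less precision, and input 1 is the least precise library. A chi-square comparison of reads between replicates gave 12.5 to 47.1 per degree of freedom, so no library repeats another.

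Copies of the inverted repeat were averaged to give 73 RNAs. limma 3.58.1 in R 4.3.3 was fitted on log2 TPM with no pseudocount across all RNAs, with the replicate as a block because each input is an aliquot of the mix of its pellet. The fit was also run on simulated data. These gave an RNA the same spread in every library and held no replicate effect. That run thus does not test the fit under the unequal spread of inputs and pellets seen here. Deviations from the group means correlated at 0.17, 0.30 and -0.03 within replicates 1, 2 and 3. Between an input and a pellet of different replicates they correlated at -0.27 to 0.19. These correlations thus hardly set matched pairs apart from mismatched ones. Named are the 4 members, their neighbours on the genome and in rank, other mRNAs of the same complexes and the 3 RNAs nearest in profile. Members and lists were chosen with earlier results of these data known. Alternatives were other tests, scalings, filters and a pseudocount, and leaving out each replicate. Python 3.11.15, pandas 2.3.3, numpy 2.4.6, scipy 1.17.1 and matplotlib 3.10.9 were used.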

Additional observations from a re-analysis of the deposited data

How the results depend on the processing

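Enrichment of *psaI*, *cemA* and *ycf4* kept its direction under every alternative run. For *ycf4* it fell to 0.051 with libraries centred on their medians (adjusted p = 0.892 from limma). The calls depended on the scale between libraries, on the test and on the replicates included. Without replicate 1, *petA* passed and neither *psaI* nor *cemA* was a target. Without replicate 2 or 3, *ycf4* did not pass. Each fit with a replicate left out gave all RNAs a shared standard error. With libraries centred on their medians, 4 RNAs were enriched, 9 depleted and 3 targets, none of the 4 members passed (0) and none was a target (0), with *psaI* at 0.48, *cemA* at 0.35, *ycf4* at 0.051 and *petA* at -0.81. Rescaled without the 3 most abundant RNAs, 5 were enriched, 2 depleted and 3 targets, 0 members passed and 0 were targets, with *psaI* at 0.83, *cemA* at 0.70, *ycf4* at 0.40 and *petA* at -0.46. Against 36 enriched and 1 depleted in the main analysis, the share of passing RNAs that were enriched fell from 97.3% to 30.8% and 71.4%. Under the methods' one-sided paired t-test with Benjamini-Hochberg adjustment, 20 RNAs passed and 12 were targets, with 0 members passing and 0 targets among them (*psaI* 1.31, adjusted p = 0.0696; *cemA* 1.18, 0.0725; *ycf4* 0.88, 0.0637), whereas unadjusted all 3 passed. A minimum of 20 reads per library left 49 RNAs, of which 19 were enriched and 12 were targets, with 1 member among them (*cemA*), since *psaI* was removed before the test.

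With a replicate left out, 21 to 58 RNAs were enriched and 21 to 26 were targets, 0 to 2 members were targets and 2 to 4 passed. Enrichment ran from 0.97 to 1.49 for *psaI*, 0.85 to 1.42 for *cemA*, 0.67 to 1.01 for *ycf4*, which did not pass without replicate 2 or 3 (adjusted p = 0.0566 and 0.0756 from limma), and -0.20 to 0.34 for *petA*, which was at -0.20 and -0.07 without replicates 2 and 3. The step in enrichment from *cemA* to *petA* ran from -1.61 to -0.51, and 8 to 39 neighbour pairs passed against 6. Steps in input level ran from -0.80 to -0.57 from *psaI* to *ycf4*, 0.40 to 0.66 from *ycf4* to *cemA* and -0.39 to 0.77 from *cemA* to *petA*.

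With no replicate block, 3 of the members still passed (*psaI*, adjusted p = 0.0128 from limma) and 2 were targets, and 15 neighbour pairs passed, none of them of the cluster. Among pairs at most 1000 nt apart, 1 passed for enrichment, and the input step from *psaI* to *ycf4* (-0.67) passed at an adjusted p = 0.0422 from limma. The cause of these shifts was not tested. The variance trend, the pseudocount of 100 TPM, the mean TPM of at least 1000 and unmerged entries changed no call of a member. Depth limits *psaI* most, with 12 reads in input 1.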
